A study of Homo sapiens with 6 samples.

Results

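Cytoplasmic dynein 1, its cofactor dynactin and the dynein regulator LIS1 were followed at the transcript level in A549 cells after knockdown of CEP20, a protein of centrioles and centriolar satellites. The members were 10 genes, found by symbol among the 60624 genes of the deposited table: *DYNC1H1*, *DYNC1I2*, *DYNC1LI1*, *DYNC1LI2*, *DYNLL1*, *DYNLT1* and *DYNLRB1* for dynein 1, *DCTN1* and *DCTN2* for dynactin, and *PAFAH1B1*, which encodes LIS1. All 10 were found, and all 10 passed the filter for testing. A549 is an established human lung adenocarcinoma line, and no other line was sequenced. RNA came from 3 siCTR samples, which received a control small interfering RNA (siRNA), and 3 siCEP20 samples, which received siRNA against CEP20. Both groups were collected 3 days after transfection by the sample labels, although a field of them speaks of a plasmid instead. The labels do not say which of the study's siRNAs against CEP20 was used, nor whether the replicates were separate cultures, so p-values describe the spread between these 6 samples.

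Dynein 1 is the motor that carries cargo along microtubules towards their minus ends, which in most animal cells lie at the centrosome. A pair of heavy chains forms the motor itself, intermediate and light intermediate chains connect it to cargo, and small light chains bind to the intermediate chains. Dynactin, a second large complex built on a short filament of actin-related protein, and an adaptor protein bring the motor into its moving state, and LIS1 helps to open the motor for this. The motor positions the centrosome, the spindle and the Golgi apparatus, and it carries centriolar satellites.

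Expression is given in TPM, a relative abundance that sums to the same total in every library and corrects for transcript length and for the size of the library, so that levels of different genes can be set side by side. Read depth is not kept in this unit and is unknown here. *CEP20* itself had 29.2, 30.5 and 35.1 TPM in the siCTR samples and 16.2, 15.3 and 17.3 TPM in the siCEP20 samples, lower in each knockdown sample than in any control. The siCTR libraries contained 14429, 14600 and 14589 genes at 1 TPM or more. The siCEP20 libraries contained 14851, 14964 and 14987, each more than any control. The epithelial and A549 markers fixed for this work (7 genes) summed to 5577 to 5699.5 TPM in siCTR and 6196 to 6452 TPM in siCEP20 samples. Within this list *KRT8*, *KRT18*, *CDH1* and *EPCAM* were higher in every siCEP20 library than in any siCTR library, and *AKR1B10*, *AKR1C1* and *NQO1* were lower. *CD3E*, *COL1A2* and *DCN* were listed at 0 throughout and *PTPRC* did not exceed 0.0183 TPM. The sums of the leukocyte list (15.6 to 23.7 against 27.6 to 46.3 TPM) and of the fibroblast list (5.34 to 6.02 against 17.5 to 19.8 TPM) moved with the knockdown through *CD68* and *COL1A1*, 1 gene in each list. The endothelial list stayed under 0.125 TPM in sum.

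The subunits did not move together. After CEP20 knockdown the light chain genes *DYNLL1* and *DYNLT1* fell to 71.3% and 70.7% of the control mean, the light chain gene *DYNLRB1* rose to 128.7% and the dynactin gene *DCTN1* to 125.5%. The other 6 members did not pass the test. In limma on log2(TPM + 1), with Benjamini-Hochberg adjustment over all 14778 tested genes, an adjusted p under 0.05 was reached upwards by 2 of 10 members and downwards by 2. Over all tested genes, 30.2% were higher and 13.2% lower by this rule, 43.3% in either direction, so the members' shares lie near the background. With the fold change limits used in the study (over 1.5 or under 0.67) added, 0 members were called by limma, 4 had an unadjusted p under 0.05, and 11.2% of all tested genes were called higher and 4.61% lower, 15.8% in either direction. In each of the 4 members that passed, the groups were separate. Of all tested genes, 38.4% had each siCEP20 value above each siCTR value and 17.0% had each below. The members had a median log2 fold change of 0.02, against 0.13 over all tested genes. Median-of-ratios scaling moved the median of all genes to -0.000949 and that of the members to -0.13. With this scaling and the fold change limits, *DYNLL1* (-0.64) and *DYNLT1* (-0.65) were called lower by limma. Of all tested genes, 7.47% were then called lower and 6.04% higher.

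**Figure D1:**
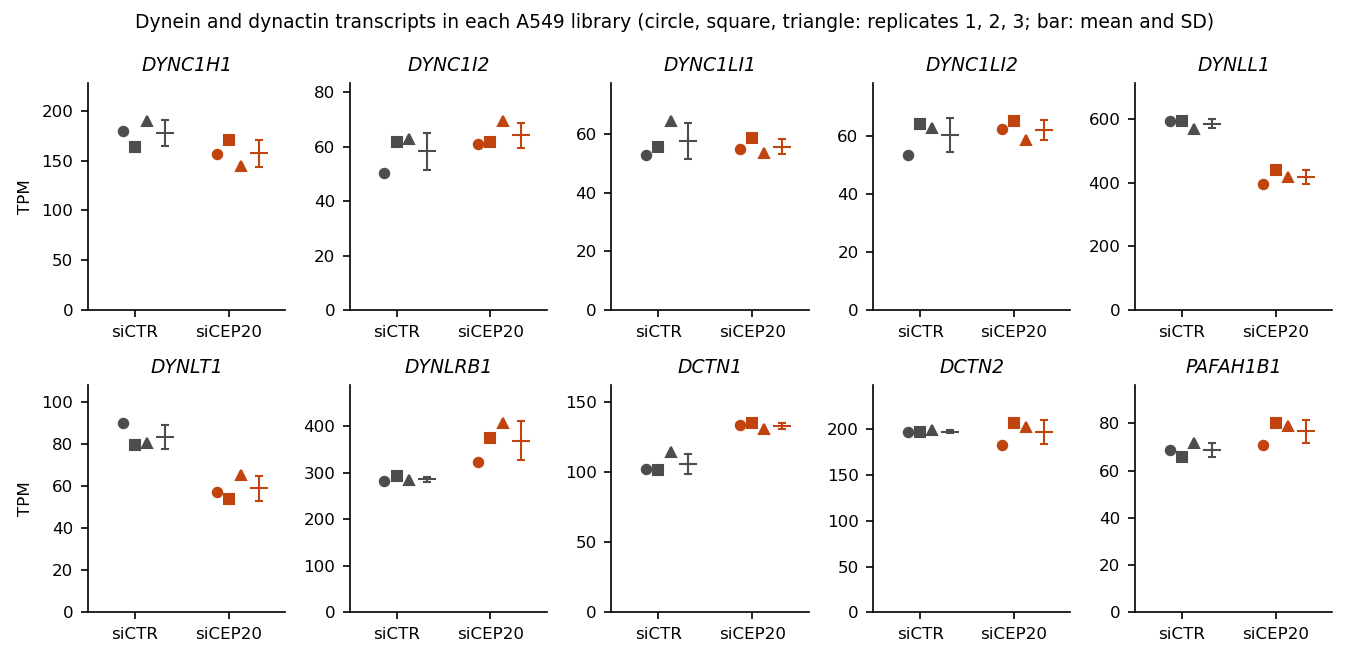
TPM (vertical axes, each from 0) of the 10 members in 3 siCTR libraries (grey) and 3 siCEP20 libraries (orange); the symbol marks the replicate number and the cross with its bar the mean and SD (n = 3). The groups are separate in *DYNLL1*, *DYNLT1*, *DYNLRB1* and *DCTN1* and overlap in the other 6.

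The heavy chain gene *DYNC1H1* (ENSG00000197102, hg38 chromosome 14 from 101964573 to 102056443, plus strand) encodes the ATP-driven motor subunit. It had 180, 164 and 189.9 TPM in the siCTR samples and 156, 171 and 144 TPM in the siCEP20 samples. The lowest control lay below the highest knockdown sample, so the groups overlapped. It changed by -0.18 on the log2 scale (SE 0.0802, 95% confidence interval -0.36 to 0.0064; limma, adjusted p = 0.107), which is -0.31 when the median change of the tested genes is taken off. This result depended on the processing: the log2 fold change was -0.33 (adjusted p = 0.0122) with median-of-ratios scaling, -0.24 (adjusted p = 0.035) with quantile normalization and -0.37 (adjusted p = 0.00618) after correcting for length and GC content, while over all alternatives the adjusted p from limma ran from 0.00618 to 0.291.

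The intermediate chain gene *DYNC1I2* had 50.4, 61.5 and 62.9 TPM in siCTR and 61.0, 61.8 and 69.4 TPM in siCEP20 samples, with a log2 fold change of 0.14 (95% confidence interval -0.08 to 0.36) that was 0.040 without siCTR replicate 1. Its paralog *DYNC1I1* was listed at 0 in all 6 libraries, so *DYNC1I2* carried all intermediate chain signal of these cells. A processed pseudogene of it, *DYNC1I2P1*, had 4.10 to 5.35 TPM in siCTR and 6.21 to 8.19 TPM in siCEP20 samples, and reads of the pair can be exchanged.

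The light intermediate chains, which hold the adaptors, were close to equal in amount. *DYNC1LI1* had 52.9, 55.5 and 64.5 TPM in siCTR and 54.8, 58.5 and 53.6 TPM in siCEP20 samples. *DYNC1LI2* had 53.6, 64.3 and 62.9 TPM in siCTR and 62.5, 65.3 and 58.6 TPM in siCEP20 samples. Their log2 fold changes were -0.05 (95% confidence interval -0.24 to 0.15) and 0.05 (95% confidence interval -0.15 to 0.24), and neither passed the test on the deposited scale. With median-of-ratios scaling *DYNC1LI1* was lower, at -0.19 (adjusted p = 0.0466 from limma, against up to 0.893 in other alternatives), and *DYNC1LI2* turned to -0.10 without passing. *DYNC1LI1* made up 48.9% ± 2.25 of their summed TPM in siCTR and 47.3% ± 0.497 in siCEP20 samples (SD, n = 3), a difference smaller than the control spread.

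The light chains are small proteins, each bound as a dimer by the intermediate chains. *DYNLL1* (ENSG00000088986, chromosome 12 from 120469850 to 120498493, plus strand) encodes LC8, a hub protein that also binds many partners outside the motor. It was the most abundant member, with 593, 594 and 569.8 TPM in siCTR and 396, 439 and 419 TPM in siCEP20 samples. All knockdown samples lay well below all controls, and the gap between the groups was wider than the range of either. The change was -0.49 on the log2 scale (SE 0.0533; limma, adjusted p = 0.000305) and held its call in all 15 alternatives, where it ran from -0.64 to -0.31.

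*DYNLT1* (ENSG00000146425, chromosome 6 from 158636474 to 158644743, minus strand) encodes a light chain of the Tctex type. It had 90.1, 79.8 and 80.7 TPM in siCTR and 57.5, 54.0 and 65.6 TPM in siCEP20 samples. The groups were separate. It changed by -0.50 on the log2 scale (SE 0.0865; limma, adjusted p = 0.00256), with the same call in all 15 alternatives and a range from -0.65 to -0.34.

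*DYNLRB1* (ENSG00000125971, chromosome 20 from 34516395 to 34540958, plus strand) encodes a light chain of the roadblock type. It had 282, 292 and 284 TPM in siCTR and 324, 375 and 407 TPM in siCEP20 samples. The controls were tightly grouped and the knockdown samples, all higher, were more scattered. The change was 0.36 on the log2 scale (SE 0.0807; limma, adjusted p = 0.00854). It remained positive in every alternative, but with median-of-ratios scaling it was 0.21 and no longer passed (adjusted p = 0.0657, over all alternatives 0.00158 to 0.0657).

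The 3 light chain genes moved in both directions. Their annotated transcripts are all short, at 663 bases for *DYNLL1*, 730 for *DYNLT1* and 662 for *DYNLRB1*. Changes followed length across the whole table. Tested genes with transcripts under 1000 bases had a median log2 fold change of -0.07, and those over 8000 bases 0.27. *DYNC1H1*, with the longest transcript among the members (19940 bases), lay on the opposite side of 0 from the median of its length class. After the correction for length and GC content the log2 fold changes were -0.31 for *DYNLL1*, -0.34 for *DYNLT1* and 0.55 for *DYNLRB1*, and all 3 passed the test. The part of transcript length in these changes was not tested.

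**Figure D2:**
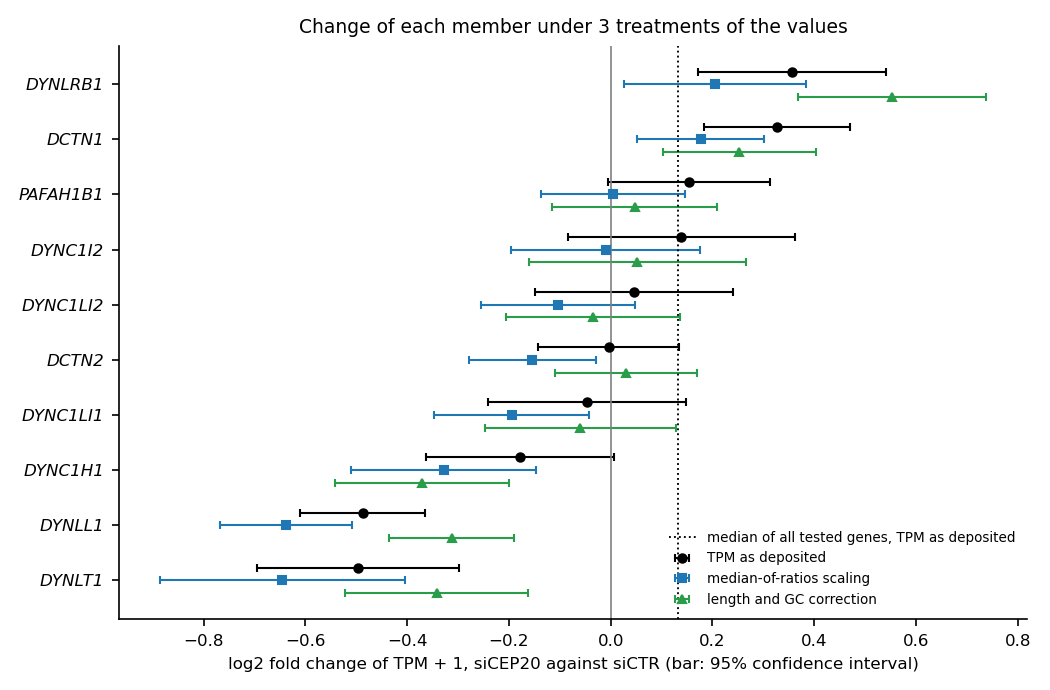
Log2 fold change of TPM + 1 (siCEP20 against siCTR, horizontal axis) of each member with its 95% confidence interval, for the deposited TPM (black), after median-of-ratios scaling (blue) and after correcting for length and GC content (green); the dotted line is the median of all tested genes, 0.13. *DYNLL1* and *DYNLT1* stay below 0 and *DYNLRB1* and *DCTN1* above it in all of them, while the interval of *DYNC1H1* reaches 0 only with the deposited values.

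Each light chain has a second gene, and of these only *DYNLL2* passed the test. *DYNLL2* had 16.2, 17.6 and 17.3 TPM in siCTR and 23.5, 23.5 and 22.2 TPM in siCEP20 samples. It rose (log2 fold change 0.41, adjusted p = 0.00283 from limma) where *DYNLL1* fell, and the share of *DYNLL1* in the pair went from 97.2% ± 0.154 to 94.8% ± 0.319 (SD, n = 3). *DYNLT3* had 14.2, 11.6 and 12.9 TPM in siCTR and 16.5, 14.2 and 15.7 TPM in siCEP20 samples, and the groups overlapped. Its log2 fold change of 0.24 did not pass (adjusted p = 0.0809 from limma, and 0.0485 without siCTR replicate 1). It was 0.10 with median-of-ratios scaling (adjusted p = 0.503 from limma) and 0.096 with quantile normalization (adjusted p = 0.535). The share of *DYNLT1* in its pair went from 86.6% ± 0.584 to 79.2% ± 1.45. *DYNLRB2* was listed at 0 in 5 libraries and at 0.205 TPM in siCEP20 replicate 2, so the roadblock signal came from *DYNLRB1*. A share within a library is the same under any single factor per library. Quantile normalization, which is not such a factor, changed the differences from -2.41 to -1.91 percentage points for *DYNLL1* and from -7.42 to -6.57 for *DYNLT1*. Nor is a trend with transcript length, and the pairs differ in length. *DYNLL1* has 663 bases and *DYNLL2* 6807, *DYNLT1* 730 and *DYNLT3* 2151. Corrected for length and GC content, the log2 fold changes were -0.31 for *DYNLL1* and 0.30 for *DYNLL2*. The shares were not corrected for length. In both pairs every siCEP20 share lay below every siCTR share, with p = 0.1 in a two-sided exact permutation test (adjusted p = 0.2 over 8 pairs). With 3 libraries a group this is the lowest p that can be reached. The 8 pairs include *DYNC1I2* with *DYNC1I1* and *DYNLRB1* with *DYNLRB2*. Their shares were at or near 100% in every library, so the groups had no room to separate. How often shares of other gene pairs separate was not computed.

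Summed over both genes of each kind, light chain transcripts amounted to 986 ± 17.8 TPM in siCTR and 884 ± 59.4 TPM in siCEP20 samples (SD, n = 3). As a description without a test, the *DYNLL* genes held 61.2%, 61.4% and 60.8% of this sum in siCTR and 51.3%, 51.0% and 47.5% in siCEP20 samples. The roadblock genes held 28.4%, 29.4% and 29.5% against 39.6%, 41.4% and 43.8%. The Tctex genes took the remainder, 9.79% ± 0.65 against 8.45% ± 0.805. The ratio of summed light chain TPM to *DYNC1H1* TPM, at 5.57 ± 0.503 and 5.66 ± 0.68, differed by less than its spread. It was not corrected for transcript length. *DYNC1H1* has 19940 bases, against 663 for *DYNLL1*, 730 for *DYNLT1* and 662 for *DYNLRB1*.

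*DYNLL1* has neighbours on the other strand, which bear on how its reads are assigned. The noncoding gene *NRAV* shares 137 of the 2931 annotated exon bases of *DYNLL1*, and *SRSF9*, a splicing factor gene, overlaps its span with 0 shared exon bases. Both were looked up after the values of *DYNLL1* were seen. *NRAV* had 32.5, 37.0 and 34.9 TPM in siCTR and 66.2, 67.4 and 71.1 TPM in siCEP20 samples, so the antisense transcript rose (log2 fold change 0.95, adjusted p = 6.55e-05 from limma) while *DYNLL1* fell. *SRSF9* fell by 0.24 on the log2 scale (adjusted p = 0.00956 from limma). The library kit kept the strand of the RNA, but whether quantification used it is not given in the sources used here, and its part in these values was not tested. *DYNLT1* and *DYNLRB1* overlap no gene whose mean reached 1 TPM. The 7 annotated processed pseudogenes named after *DYNLL1* had at most 0.826 TPM in any library.

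Among the dynactin members, *DCTN1* and *DCTN2* parted. *DCTN1* (ENSG00000204843, chromosome 2 from 74361154 to 74392087, minus strand) encodes p150Glued, the subunit that binds both microtubules and the dynein intermediate chain. It had 102, 102 and 114 TPM in siCTR and 133, 135 and 131 TPM in siCEP20 samples, every knockdown sample above every control. The change was 0.33 on the log2 scale (SE 0.0624; limma, adjusted p = 0.00394), and the call held in all 15 alternatives with values from 0.18 to 0.38. *DCTN2*, which encodes dynamitin, a subunit of the shoulder that links p150Glued to the filament, had 196, 196 and 199 TPM in siCTR and 182, 207 and 202 TPM in siCEP20 samples. Its log2 fold change was -0.0037 with a 95% confidence interval from -0.14 to 0.13, which does not reach the 0.33 of *DCTN1*. With median-of-ratios scaling *DCTN2* was at -0.15 (adjusted p = 0.0519 from limma). *DCTN1* shares exon bases with a gene on its own strand, but that gene's mean was 1.64 TPM. *DCTN2* shares 516 of its 9995 annotated exon bases with *MBD6*, on the opposite strand at a mean of 51.9 TPM, and 71 with *KIF5A*, at 1.15 TPM.

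The other 10 dynactin genes fixed as a list were all tested, with 1 higher, 2 lower and 7 not passing, and a median log2 fold change of -0.07. Over all tested genes, 30.2% were higher and 13.2% lower, with a median of 0.13. *DCTN3*, which encodes the small shoulder subunit p24, had 93.4, 92.2 and 89.2 TPM in siCTR and 68.8, 76.0 and 68.1 TPM in siCEP20 samples, and it fell by 0.37 on the log2 scale (adjusted p = 0.00253 from limma). Its transcript is short (828 bases), and corrected for length and GC content the change was -0.19 (adjusted p = 0.0456 from limma). *ACTR1B*, the minor gene for the actin-related protein of the filament, fell by 0.21 on the log2 scale (adjusted p = 0.0365 from limma), a call lost in 7 of 15 alternatives, among them the removal of any siCTR library or of siCEP20 replicate 2 or 3 (adjusted p up to 0.117). The major gene *ACTR1A* had 111 ± 2.98 and 102 ± 2.36 TPM (SD, n = 3), a log2 fold change of -0.12 that did not pass (adjusted p = 0.102) on the deposited scale and passed with median-of-ratios scaling (-0.27, adjusted p = 0.0109 from limma) and with quantile normalization (-0.19, adjusted p = 0.0245).

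The filament's barbed end is closed by capping protein, a dimer of an alpha and a beta subunit that also caps ordinary actin filaments. Its alpha subunit genes differed in direction: *CAPZA1* rose from 74.6 ± 6.77 to 94.3 ± 1.74 TPM (SD, n = 3; log2 fold change 0.34, adjusted p = 0.00752 from limma), while *CAPZA2* had 53.6 ± 6.62 and 47.8 ± 6.27 TPM and did not pass (-0.16, adjusted p = 0.287). The share of *CAPZA1* was 59.1%, 56.0% and 59.6% in siCTR and 68.0%, 63.6% and 67.7% in siCEP20 samples, separate between the groups (two-sided exact permutation test, p = 0.1, the smallest possible). The beta subunit gene *CAPZB*, at 186 ± 1.11 and 197 ± 6.04 TPM, did not pass (0.08, adjusted p = 0.231). *DCTN4*, *DCTN6* and *ACTR10*, genes of the pointed end complex, had log2 fold changes of 0.21, 0.11 and -0.08 and did not pass. With 1 library left out these ran from 0.090 to 0.30, from 0.030 to 0.18 and from -0.16 to -0.019. Nor did *DCTN5*, of the same complex, whose siCEP20 replicate 1 stood apart at 20.8 TPM against 42.8 and 37.4 TPM in the other siCEP20 samples. Its log2 fold change was -0.06 with that library and 0.25 without it (adjusted p = 0.0782 from limma).

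**Figure D3:**
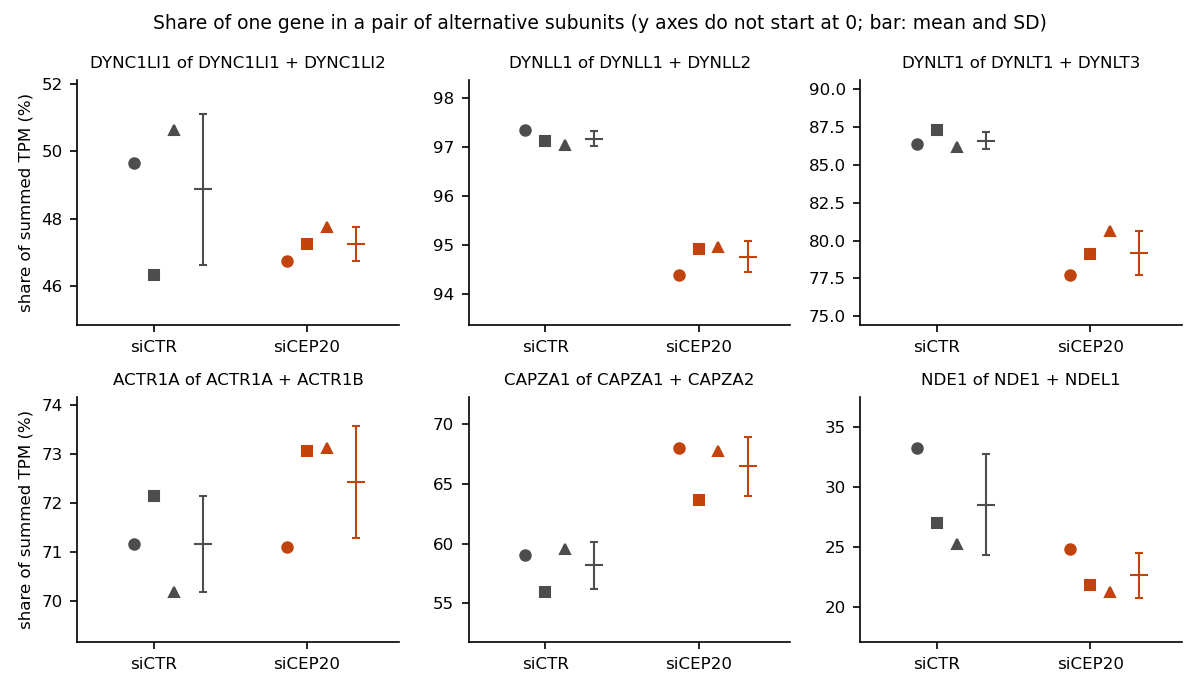
Share of 1 gene in the summed TPM of a pair of alternative subunits (percent, vertical axes not starting at 0) in each siCTR (grey) and siCEP20 (orange) library, with mean and SD (n = 3). The groups are separate for *DYNLL1*, *DYNLT1*, *CAPZA1* and *NDE1* and overlap for *DYNC1LI1* and *ACTR1A*.

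*PAFAH1B1*, the LIS1 gene, had 68.6, 65.7 and 71.9 TPM in siCTR and 71.0, 80.1 and 78.7 TPM in siCEP20 samples. The groups overlapped, and the log2 fold change of 0.15 (95% confidence interval -0.0060 to 0.31, adjusted p = 0.108 from limma) lay close to the 0.13 of the median tested gene. With median-of-ratios scaling it was 0.0044. Of the 3 genes listed as LIS1 partners, 2 were higher, beside 30.2% of all tested genes. *NUDC*, a cochaperone that stabilizes LIS1, had 144, 142 and 153 TPM in siCTR and 197, 211 and 201 TPM in siCEP20 samples, a rise of 0.47 on the log2 scale (adjusted p = 0.00045 from limma). *NDEL1*, which encodes a scaffold between LIS1 and dynein, rose from 79.9 ± 8.71 to 105 ± 6.62 TPM (0.39, adjusted p = 0.00896). Its paralog *NDE1* had 31.7 ± 3.42 and 30.7 ± 1.32 TPM and did not pass (-0.04, adjusted p = 0.731), and its share in the pair went from 28.5% ± 4.21 to 22.7% ± 1.90 (two-sided exact permutation test, p = 0.1). The highest control share, 33.3%, was that of siCTR replicate 1, and without it the difference went from -5.87 to -3.49 percentage points.

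In the siCTR samples the members spanned 10.2-fold between the highest and the lowest mean. From the top the order was *DYNLL1*, *DYNLRB1*, *DCTN2*, *DYNC1H1*, *DCTN1*, *DYNLT1* and *PAFAH1B1*, each with all values above those of the next, and *PAFAH1B1* lay in the same way above *DYNC1LI2*. *DYNC1LI2*, *DYNC1I2* and *DYNC1LI1* overlapped with one another at 57.6 to 60.3 TPM. In the siCEP20 samples the span was 7.51-fold. *DYNLL1* and *DYNLRB1* now overlapped at the top (418 ± 21.6 and 369 ± 41.9 TPM, SD, n = 3), and *DYNLT1*, at 59.0 ± 5.93 TPM, had joined the overlapping group at the bottom.

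Ratios to *DYNC1H1* within each library compare the members free of any single factor per library, but not free of a trend with transcript length. All 9 ratios share *DYNC1H1*, which itself changed by -0.18 on the log2 scale. Each shift includes that change, and the ratios are not independent of one another. By their own TPM, *PAFAH1B1* changed by 0.15 and *DYNC1LI1* by -0.05, both with overlapping groups. In log2 units the ratio of *DCTN1* to *DYNC1H1* was -0.81, -0.69 and -0.73 in siCTR and -0.23, -0.34 and -0.14 in siCEP20 samples, a shift of 0.51. That of *DYNLRB1* shifted by 0.54 and that of *PAFAH1B1* by 0.33, both with separate groups. The ratio of *DYNC1LI1* also had separate groups, with a shift of 0.13 that was 0.062 without siCTR replicate 1, and with quantile normalization its groups overlapped (0.11, p = 0.2 in the exact permutation test). The ratio of *DYNLL1* shifted by -0.31, again with separate groups, whereas that of *DYNLT1* (-0.32) overlapped, as did those of *DYNC1I2*, *DYNC1LI2* and *DCTN2*. For the 5 separate ratios p was 0.1 in the two-sided exact permutation test, again the lowest that can be reached. The adjusted p was 0.18 over 9 ratios. By TPM alone, 38.4% of all tested genes had each siCEP20 value above each siCTR value and 17.0% had each below. Separate groups were thus common in the whole table, and the share for ratios of other genes to *DYNC1H1* was not computed.

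Beyond these complexes, 4 further lists of related genes were read: adaptors, anchors at the cell cortex and kinetochore, dynein 2 and kinesin-1. Over the 7 lists beside the members, 47 of 54 genes were tested, 19 were higher and 4 lower, beside 30.2% and 13.2% of all tested genes. With median-of-ratios scaling 15 were higher and 9 lower, beside 20.1% and 21.6% of all tested genes.

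Adaptors decide which cargo the activated motor takes. Of 17 listed, 14 were tested, 7 were higher and 2 lower, beside 30.2% and 13.2% of all tested genes. The median change was 0.26 on the log2 scale, against 0.13 over all tested genes. Corrected for length and GC content, the adaptor median was 0.11 and that of all tested genes 0.12. *BICD2*, an adaptor for Golgi vesicles and the nuclear envelope, had 9.62, 11.1 and 9.66 TPM in siCTR and 27.2, 27.8 and 25.2 TPM in siCEP20 samples. Its mean was 2.64-fold higher (1.32 on the log2 scale, SE 0.087; limma, adjusted p = 4.77e-05), the largest change among all genes of these lists. *TRAK1*, a mitochondrial adaptor that also binds kinesin-1, rose from 19.8 ± 1.57 to 31.4 ± 3.24 TPM (SD, n = 3; 0.64, adjusted p = 0.00126). *SPDL1*, which encodes Spindly, the kinetochore adaptor, rose from 27.8 ± 4.07 to 40.6 ± 1.76 TPM (0.54, adjusted p = 0.00394). The 2 lower adaptors, named because of their values, were *RILP*, which links dynein to late endosomes (15.2 ± 1.49 to 10.7 ± 1.41 TPM), and *TRAK2*, the paralog of *TRAK1* (15.3 ± 1.48 to 11.2 ± 0.988 TPM). The adaptors not tested for low level were *BICDL2*, *HOOK1* and *CRACR2A*.

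Of the 8 anchors, all tested, 5 were higher and 0 lower by limma, beside 30.2% and 13.2% of all tested genes. All 5 genes with an unadjusted p under 0.05 were the higher ones. The median log2 fold change was 0.35, and 0.21 once corrected for length and GC content. Over all tested genes these medians were 0.13 and 0.12. *ZW10*, part of the complex that recruits dynein to kinetochores and also of a tether for Golgi vesicles, had 7.13, 7.59 and 8.18 TPM in siCTR and 15.0, 16.6 and 15.0 TPM in siCEP20 samples (log2 fold change 0.94, adjusted p = 0.000187 from limma). *GNAI2*, one of the G protein genes behind the cortical anchor, rose from 50.3 ± 1.65 to 72.5 ± 3.64 TPM (0.52, adjusted p = 0.000531). *KNTC1*, a partner of ZW10, rose from 10.6 ± 1.15 to 14.9 ± 1.72 TPM (0.45, adjusted p = 0.0137, and 0.0512 without siCEP20 replicate 2).

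Dynein 2, the retrograde motor of cilia, has its own heavy chain but shares light chains with dynein 1. Of its 5 listed genes 2 were higher and 0 lower by limma, beside 30.2% and 13.2% of all tested genes. The same 2 had an unadjusted p under 0.05. *DYNC2I1*, an intermediate chain gene, rose from 8.95 ± 1.05 to 16.8 ± 0.605 TPM (log2 fold change 0.84, adjusted p = 0.00042 from limma), and the light intermediate chain gene *DYNC2LI1* from 16.8 ± 1.74 to 28.0 ± 1.57 TPM (0.71, adjusted p = 0.000733). *DYNLT2B*, a light chain gene of dynein 2, did not pass (0.17, adjusted p = 0.177), though it did after the correction for length and GC content (0.35, adjusted p = 0.0193). For kinesin-1, the motor that runs in the opposite direction, 5 of 7 genes were tested and 1 was higher, beside 30.2% of all tested genes. The heavy chain gene *KIF5B* rose from 46.3 ± 2.43 to 61.7 ± 3.10 TPM (0.41, adjusted p = 0.00228), while the light chain genes *KLC1* (0.01) and *KLC4* (0.04) did not pass (adjusted p = 0.877 and 0.763).

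**Figure D4:**
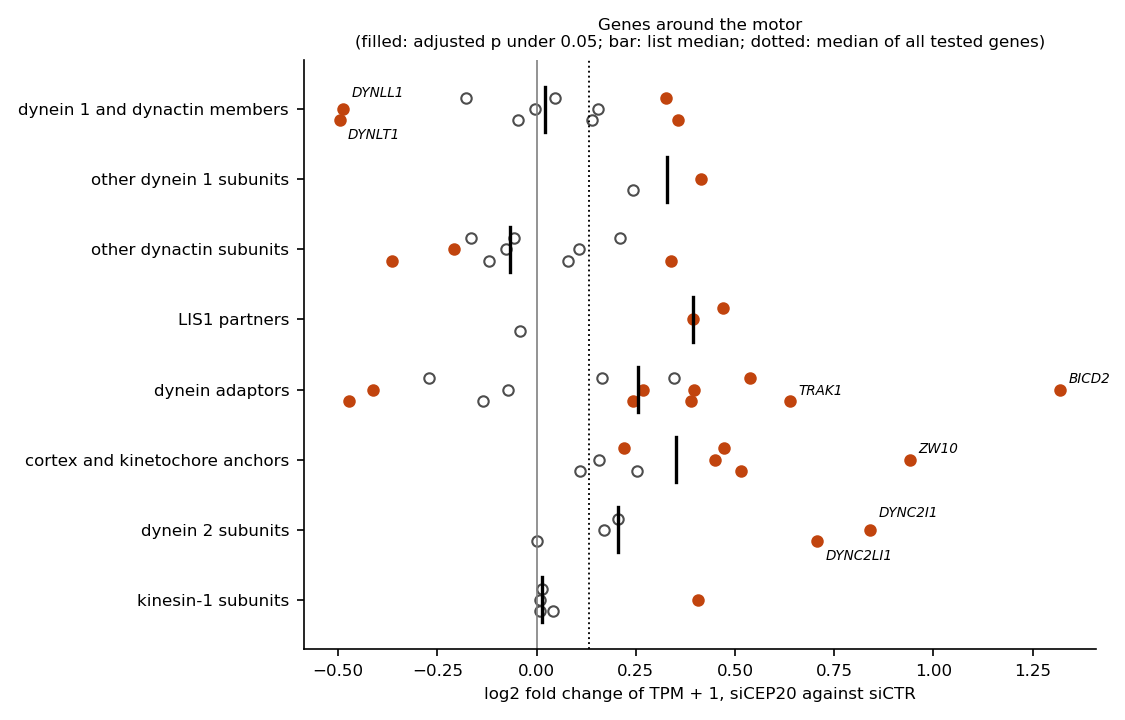
Log2 fold change of TPM + 1 (siCEP20 against siCTR, horizontal axis) of the members and of each tested gene in the 7 lists around them (rows); filled points passed limma at an adjusted p under 0.05, open points did not, black bars are list medians and the dotted line is the median of all tested genes. *BICD2*, at 1.32, lies farthest from 0, and *DYNLL1* and *DYNLT1* lie farthest below it.

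Across the 6 libraries, the tested genes whose log2(TPM + 1) followed *DYNC1H1* most closely were *MATCAP1*, *MREG* and *BZW2*, with Pearson correlations of 0.994, 0.989 and 0.987. These points share their libraries and 2 groups, and the 3 genes were picked from all 14778, so the values only describe likeness. Like *DYNC1H1*, they were lowest in siCEP20 replicate 3 and highest in siCTR replicate 3.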

How the data were processed

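The members and gene lists were chosen with earlier results of these data known. According to the methods and the submitters' processing notes, the authors trimmed reads with fastp 0.20.1, aligned them to hg38 with HISAT2 2.1.0 and used StringTie 2.0 to obtain the deposited TPM per Ensembl gene. The annotation release they used is not given in the sources used here. Each of the 6 columns sums to 1000000, so depth is unknown and no interval based on counts was computed. Columns were mapped to samples by name, those headed si with a replicate number being taken as siCEP20 because the others are headed control.

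Genes were placed with GENCODE release 44 (hg38), which matched 99.6% of rows, and transcript length is that of the Ensembl canonical transcript. Genes whose mean reached 1 TPM were compared with limma 3.58.1 in R 4.3.3 (log2(TPM + 1), eBayes with a trend, no scaling between libraries, Benjamini-Hochberg adjustment), since the authors' DESeq2 test needs counts. Such fold changes understate the change of low genes. Shares and ratios were tested with exact permutation tests in scipy 1.17.1 (Python 3.11.15). Genes named were the members, *CEP20*, all genes of the dynein 1, dynactin and LIS1 lists, the 3 with the smallest adjusted p in each other list, and the 3 most like *DYNC1H1*. The lower and the untested adaptors, and the pseudogenes and genes that overlap members, were named outside this rule after their values were seen. In simulated data with 14778 genes, 58% of 100 genes changed by 0.5 and 88% of 100 changed by 1 on the log2 scale passed, and 0.0206% of unchanged genes did. There 14578 genes were unchanged, whereas 43.3% of all tested genes passed in the real data, so these rates need not hold for it.

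The fits were repeated with median-of-ratios scaling, a pseudocount of 0.1, without the filter or with it at 5 TPM, quantile normalization, no trend, the replicate number as a block, a loess correction for length and GC content (span 0.5), protein-coding genes only, and each library left out.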

Additional observations from a re-analysis of the deposited data

How the results depend on the processing

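Over 15 alternatives for each of the 10 members, 136 of 150 values kept their direction and their side of the threshold. The members' fold changes could not move without the filter, with it at 5 TPM, or without the trend. Nor could they with the block or with protein-coding genes only, and in these settings only the adjusted p could differ. The deposited values place the median of all tested genes above 0, and calls changed with the scale between libraries. With median-of-ratios scaling 1 member was higher and 4 were lower (*DYNLL1*, *DYNLT1*, *DYNC1H1* and *DYNC1LI1*), beside 20.1% and 21.6% of all tested genes. In the lists around them 9 genes were lower with this scaling. With quantile normalization 7 were lower, beside 19.9% of all tested genes. Directions that turned belonged to values that did not pass: with median-of-ratios scaling *DYNC1I2* -0.0096, *DYNC1LI2* -0.10, *DCTN6* -0.041, *CAPZB* -0.072, *KLC1* -0.14 and *KLC4* -0.10; with quantile normalization *DYNC1LI2* -0.032, *KLC1* -0.062 and *KLC4* -0.12; and after the length and GC correction *DYNC1LI2* -0.035 and *DCTN2* 0.030. With each library left out in turn, 2 members stayed higher and 2 lower, and in the lists 14 to 18 were higher and 3 to 4 lower. Of all tested genes, 22.7% to 29.3% were then higher and 10.1% to 11.7% lower. Log2 fold changes then ran from -0.035 to 0.094 for *DYNC1LI2*, -0.11 to 0.036 for *DYNC1LI1*, -0.039 to 0.051 for *DCTN2*, -0.25 to 0.25 for *DCTN5*, -0.12 to 0.029 for *NDE1*, -0.015 to 0.064 for *KLC1*, -0.27 to -0.085 for *CAPZA2*, 0.040 to 0.20 for *DYNC1I2* and -0.023 to 0.11 for *KLC4*. *CEP20* ran from -0.97 to -0.84. The cause of these shifts was not tested.

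Replicate numbers are shared between groups, but nothing in the labels says that they pair the samples. Deviations of same-numbered samples from their group means correlated at 0.157, -0.0614 and -0.0623 for numbers 1 to 3, so not every sample went best with its own number. With the number as a block, 2 members were higher and 2 lower, and the lists gave 18 higher and 4 lower. Of all tested genes, 28.9% were higher and 12.6% lower in this setting. With 3 replicates in each group and no counts, the precision rests on the spread between libraries.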
